A study of Homo sapiens with 6 samples.

Results

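The 9 genes PAX5, EBF1, IKZF1, IKZF3, POU2AF1, POU2F2, SPIB, BCL11A and TCF3 encode transcription factors and a coactivator that set the identity of B cells. Accessible chromatin at these genes was read from 6 peak lists of bulk ATAC-seq, an assay in which the Tn5 transposase cuts open chromatin and tags it for sequencing. A peak was assigned to a gene when it overlapped the gene body or the 10 kb on either side (GENCODE version 44, hg19). The peaks of all libraries were merged into 56447 regions, of which 81 lay at the 9 genes. The genes were picked by name for their roles in B cells, with earlier results of these data known, from 19794 protein-coding genes in the annotation.

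All libraries came from GM12878, a human lymphoblastoid cell line made by transforming B cells with Epstein-Barr virus. The cells were fixed with 1% PFA, lysed with 0.05% Igepal CA-630, transposed for 30 min at 37 °C and quenched with 40 mM EDTA, and no antibody was used. The 3 groups of 2 replicates each differed in reverse crosslinking, the overnight step at 65 °C that frees the transposed DNA from fixed protein. The first group used a buffer with SDS, and the second a buffer without SDS, both with DNA purification according to the study's text and supplement. The remaining group used the buffer without SDS and no DNA purification, which is the bulk Pi-ATAC workflow. These are called the SDS, the purified non-SDS and the unpurified non-SDS protocols. Because the study made them to ask whether the new buffer preserves the accessibility profile, the question here is whether the regions of these 9 genes were called equally in all 3. Nothing in the labels says that the replicates were separate cultures, so tests over them measure the spread between these libraries, which may be technical.

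B-cell commitment depends on a small network of factors that act on each other's genes. TCF3, an E protein that binds E-box sequences, and EBF1, a factor able to bind closed chromatin, act early and help switch on PAX5, which maintains B-cell identity and silences genes of other lineages. IKZF1 (Ikaros) and IKZF3 (Aiolos) are zinc finger proteins of 1 family, and BCL11A is a zinc finger repressor needed for early B-cell development and also known for its role in globin switching. POU2F2 (Oct-2) binds the octamer sequence, and POU2AF1 (OCA-B) is the B-cell coactivator that joins POU factors on it. SPIB is an ETS family factor closely related to PU.1.

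Regions were numbered along the chromosome within each gene. The sequences below are 200 bases of the GRCh37 reference around the summit of the strongest region outside promoters at 4 of the genes, on the plus strand and clear of annotated exons. They are shown because these regions were called in all 6 libraries and because they differ in composition, with 71.1% and 75.1% G or C around the summit at PAX5 and IKZF3, and 43.5% and 46.2% at EBF1 and IKZF1. Capitals mark a motif: the CCAAT box or its complement at PAX5, the octamer ATGCAAAT at EBF1, the octamer on the minus strand and an Ikaros-type TGGGAA on the minus strand at IKZF1, and CCCNNGGG of the EBF type at IKZF3. The CCAAT box was marked at PAX5 only. IKZF1 region 7 also holds 1, which overlaps the octamer and is not marked.
PAX5 region 7, chr9:37027687-37027886: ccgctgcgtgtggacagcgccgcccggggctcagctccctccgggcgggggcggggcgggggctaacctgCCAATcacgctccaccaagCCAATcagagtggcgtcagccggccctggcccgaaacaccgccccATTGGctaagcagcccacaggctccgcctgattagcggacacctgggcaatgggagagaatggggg
EBF1 region 17, chr5:158381070-158381269: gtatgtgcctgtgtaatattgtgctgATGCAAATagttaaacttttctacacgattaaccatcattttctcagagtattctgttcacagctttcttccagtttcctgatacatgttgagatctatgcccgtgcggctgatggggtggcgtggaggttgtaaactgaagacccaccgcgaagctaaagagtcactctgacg
IKZF1 region 7, chr7:50418349-50418548: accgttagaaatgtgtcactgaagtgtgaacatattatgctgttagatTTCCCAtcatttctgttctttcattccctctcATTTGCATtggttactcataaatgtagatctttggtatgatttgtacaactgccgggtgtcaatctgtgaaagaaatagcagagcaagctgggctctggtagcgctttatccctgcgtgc
IKZF3 region 1, chr17:37910719-37910918: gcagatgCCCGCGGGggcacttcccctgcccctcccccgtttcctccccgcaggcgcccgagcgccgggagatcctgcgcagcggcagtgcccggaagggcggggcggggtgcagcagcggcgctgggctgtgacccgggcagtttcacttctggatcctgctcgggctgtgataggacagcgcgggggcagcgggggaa

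The peak lists held 30136 to 38023 peaks per library, of which 45 to 58 lay at the 9 genes. The lists carry no read totals. The read pileup at each summit was recovered from the fold enrichment and the p value that the peak caller wrote, and had a median of 20 to 22 reads per library. The lowest local background, a measure of relative depth, differed between libraries by up to 1.24-fold. A pileup of 20 reads has a counting error of 4.47 reads, or 22.4%, and this covers counting error only. A region with no peak in a library had no recorded value there, and may still hold reads under the calling threshold. As a check of the cell type, promoters of 1 of 6 B-cell markers (MS4A1, which encodes CD20), 1 of 5 T-cell markers (CD8A), and 0 each of 4 erythroid, 4 myeloid and 4 epithelial markers were called in all 6 libraries. Of the other 5 B-cell markers 4 were called in some libraries and BLK in none. Of the other T-cell, erythroid and epithelial markers all were called in none, and of the myeloid markers 3 were called in none and CD14 in some. Over all protein-coding genes 45.6% of promoters were called in all 6 libraries and 39.3% in none.

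Of the 81 regions, 31 (38.3%) were called in all 6 libraries, where 35.5% of all regions were. Another 7 were called in 5 libraries, 5 in 4, 5 in 3, 14 in 2 and 19 in 1. The share called in a single library was 23.5%, and that over all regions was 27.4%. The 31 regions had a median mean pileup of 32.0 reads and a median width of 717 bp, beside 29.2 reads and 738 bp over all regions called in every library. The regions called in 1 library had a median of 16.0 reads and 236 bp. Most of the 81 regions lay in introns (51, of which 20 in all 6 libraries), 14 lay within 1 kb of a coding start of the gene itself (5 in all 6), 2 overlapped exons (1), 7 lay in the downstream flank (5) and 7 in the upstream flank (0).

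**Figure D1:**
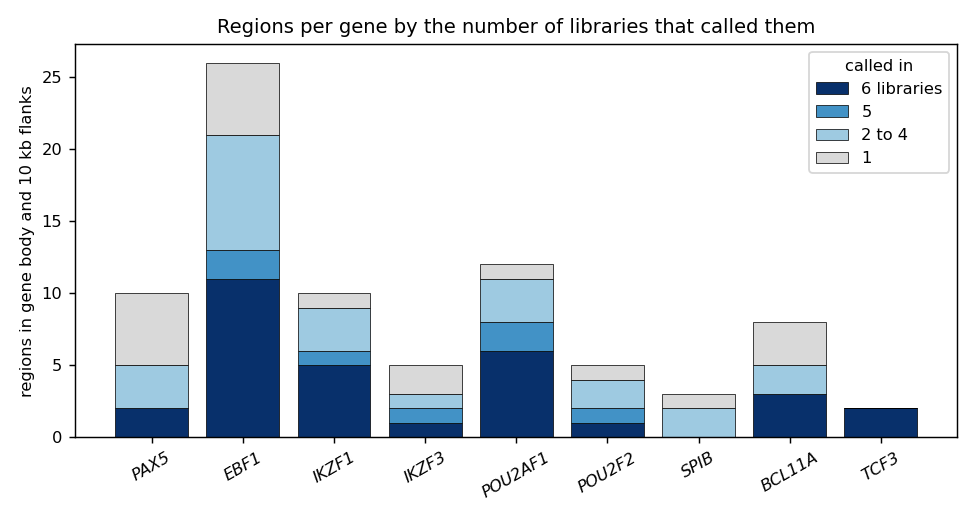
Number of regions (y axis) at each of the 9 genes, stacked by how many of the 6 libraries called them. EBF1 had the most regions, 26, with 11 of them in every library, while SPIB had 3 regions and none in every library.

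The genes differed in how many regions they held. EBF1, a gene of 404 kb, held 26 regions, more than 99.8% of protein-coding genes. POU2AF1 held 12, PAX5 and IKZF1 10 each, BCL11A 8, IKZF3 and POU2F2 5 each, SPIB 3 and TCF3 2. The genes also differed in length, from 12.4 kb for SPIB and 43.3 kb for TCF3 to the 404 kb of EBF1. Per 100 kb of window, POU2AF1 was densest with 9.73 regions, then SPIB with 9.27, IKZF1 with 6.71, BCL11A with 6.45, EBF1 with 6.13, PAX5 with 4.52, IKZF3 with 3.95, POU2F2 with 3.83 and TCF3 with 3.16. These densities count each region, whatever the number of libraries that called it, and their order depends on that. Of the 3 SPIB regions 0 were called in all 6 libraries, while both regions of TCF3 were. The median of the 9 genes was 6.13 per 100 kb, and that of all protein-coding genes was 2.84. For 15 relatives outside the 9 genes, such as EBF2, PAX8 and IKZF2, it was 2.44. For 8 other B-cell regulators, such as IRF4 and MEF2C, it was 6.91.

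**Figure D2:**
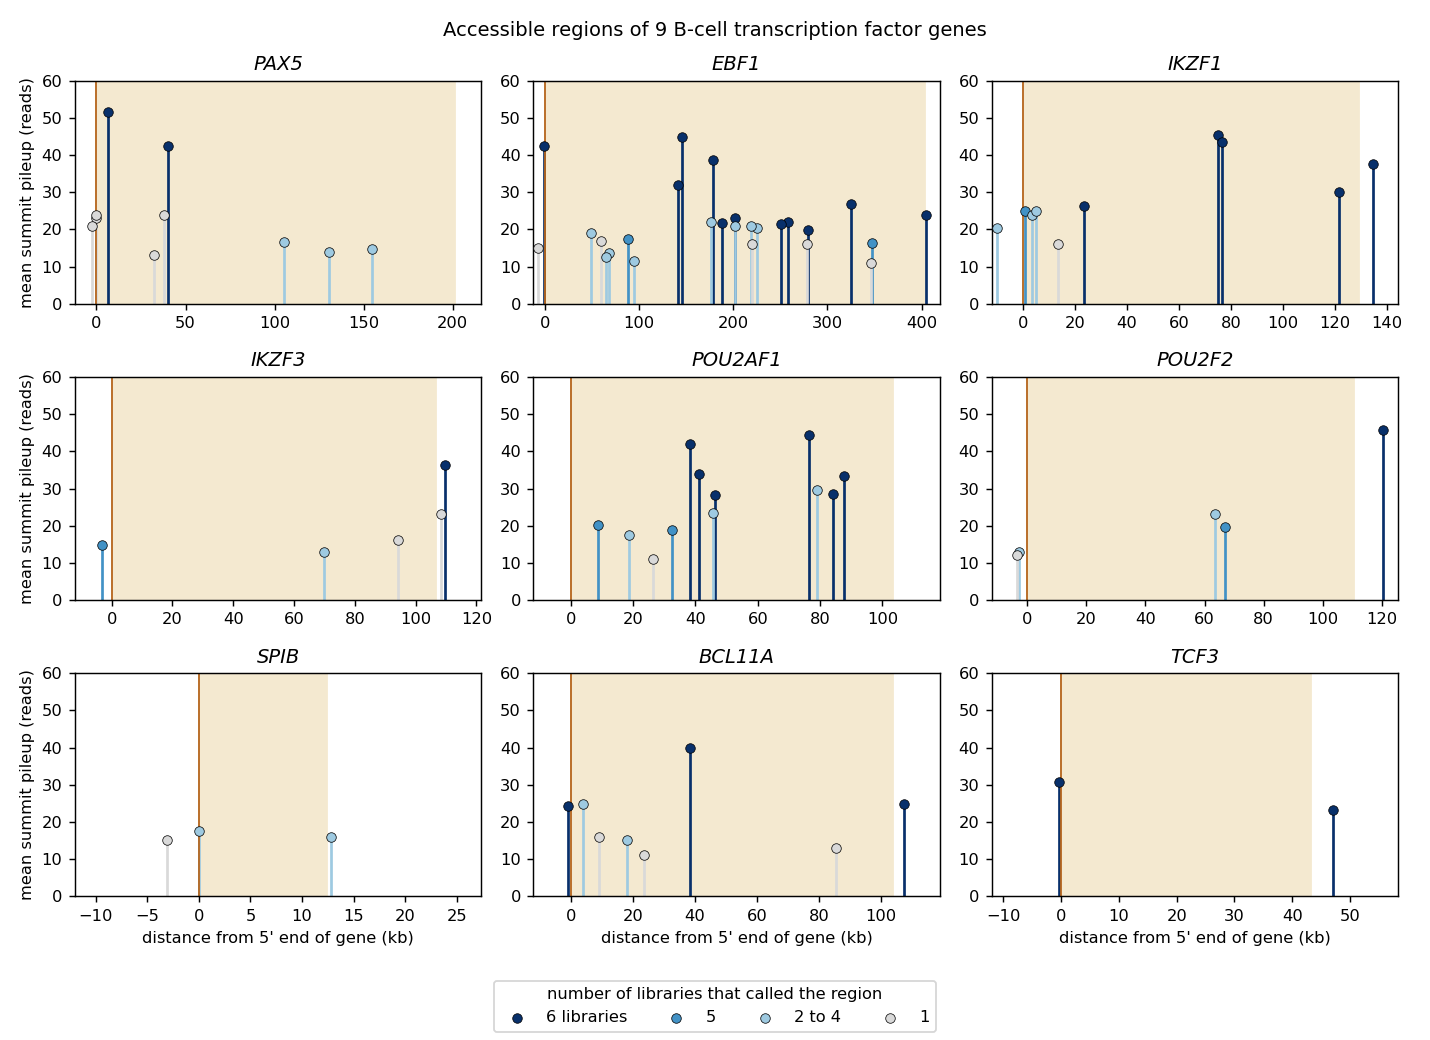
Position of each region's summit relative to the annotated 5′ end of its gene (x axis, kb, negative upstream, own scale per gene) and its mean summit pileup over the libraries that called it (y axis, reads), with the gene body shaded and the colour giving the number of libraries. The highest points of PAX5, EBF1, IKZF1 and BCL11A stood inside the gene, and those of POU2AF1 stood between 38.3 and 87.8 kb from its 5′ end.

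At the promoters, 5 of the 9 genes (55.6%) had a region called in all 6 libraries, beside 45.6% of all protein-coding genes. These were EBF1, IKZF1, POU2AF1, BCL11A and TCF3. POU2F2 and SPIB were called at a promoter in 2 libraries each, PAX5 in 1 and IKZF3 in none. Of the 15 relatives 6 had such a promoter region in every library (BCL11B, IKZF2, IKZF5, POU2F1, TCF12 and TCF4). Another 6 (40%) had a promoter region in none (EBF2, EBF3, EBF4, PAX2, POU2F3 and SPI1), near the 39.3% of all protein-coding genes. SPI1 encodes PU.1, the ETS factor of myeloid cells and early B cells. Of the 8 other B-cell regulators 5 had it in every library (FOXO1, ID2, ID3, IRF4 and MEF2C) and 0 in none.

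The EBF1 promoter (region 25, chr5:158526985-158527772) was called with 42 and 40 reads in the SDS, 44 and 42 in the purified non-SDS and 40 and 47 in the unpurified non-SDS libraries. Its SD was the lowest of the 5 promoters, at 42.5 ± 2.66 reads (SD over the 6 libraries), and the 3 groups overlapped. By −log10 q its peak stood on average in the top 22.9% of its library. The median gene with a promoter peak in all 6 libraries stood in the top 21.4%.

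The POU2AF1 promoter (region 4, chr11:111249368-111250568) had 41 and 46, 53 and 36, and 51 and 39 reads in the same order, which is 44.3 ± 6.80. Its summit lay 52 bp upstream of an internal coding start, 76.3 kb inside the gene as annotated. No region was called at the outermost start, and the region nearest to it, region 12, lay 8.84 kb inside the gene and was called in 5 libraries with 17 to 25 reads. The promoter peak stood on average in the top 23.3% of its library.

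IKZF1 had 3 promoter regions. Region 6 (chr7:50366985-50367480), 23.5 kb inside the gene at an internal start, was the only one called in all 6 libraries, with 20 and 25, 34 and 16, and 37 and 26 reads. The replicates of both non-SDS protocols stood further apart than the groups did. Region 2, at the outermost starts, was called in 5 libraries with 21 to 29 reads, and region 4 in 2 libraries with 25 reads each. The best promoter peak stood on average in the top 30.6%, from 13.6% to 63.1% by library.

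The TCF3 promoter (region 2, chr19:1652554-1653265) had 31 and 38, 31 and 35, and 28 and 21 reads. Both unpurified libraries were lower than the other 4, a pattern that was not counted over all regions. The rank of the promoter peak ran from the top 16.7% to the top 93.7%. BCL11A had 3 promoter regions. Region 8 (chr2:60782089-60782788), 828 bp upstream of the first coding start, was called in all 6 libraries with 20 to 28 reads and stood between the top 48.7% and the top 84.9% of its library. The strongest promoter peak of BCL11A in each library, which was that of region 7 in unpurified replicate 2, stood on average in the top 55.3%. Region 7 had peaks in the 4 non-SDS libraries, with 18 to 32 reads, and in neither SDS library. Region 6 was called in 1 library, with 16 reads.

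The remaining genes had weak promoter signal within 1 kb of their coding starts. POU2F2 region 3 (chr19:42637015-42637529), 63.4 kb inside the gene at a cluster of internal starts, was called in SDS replicate 1 with 27 reads and purified replicate 2 with 19. SPIB region 2 (chr19:50922050-50922320), 4 bp from a coding start, was called in SDS replicate 1 with 18 reads and unpurified replicate 1 with 17, and also lies in a readthrough gene annotated as ENSG00000142539. At PAX5 regions 6, 8 and 9 were each called only in purified non-SDS replicate 1, with 13, 23 and 24 reads. This rests on the 1 kb window. PAX5 region 7, described below as intronic, was called in all 6 libraries with 43 to 58 reads. It reaches within 2 kb of an internal coding start and would be a promoter region under that window. IKZF3 had no region within 1 kb of a coding start in any library, and its nearest region, region 5 in the upstream flank, lay at the promoter of the neighbouring ZPBP2. Over the 8 genes with a promoter peak, the median of the mean ranks was the top 49.6%. Ranked by summit pileup it was the top 33.7%, and ranked by fold enrichment the top 66.7%.

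The local background estimated by the peak caller was high at these genes. Relative to the lowest background of its library it had a median of 2.0 over the 81 regions and 1.44 over all regions. Among regions called in all 6 libraries it was 2.97 at the 9 genes and 2.01 overall. It was highest at POU2AF1 (3.60), IKZF1 (3.18) and PAX5 (2.99). PAX5 regions 8 and 9, on the main promoter, had ratios of 4.38 and 4.14, so that 23 and 24 reads gave −log10 q values of 4.10 and 5.05. EBF1 region 1 had a similar 23.8 reads on average and a ratio of 1.22, and reached 15.1. The part of local background in the missing promoter calls was not tested.

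**Figure D3:**
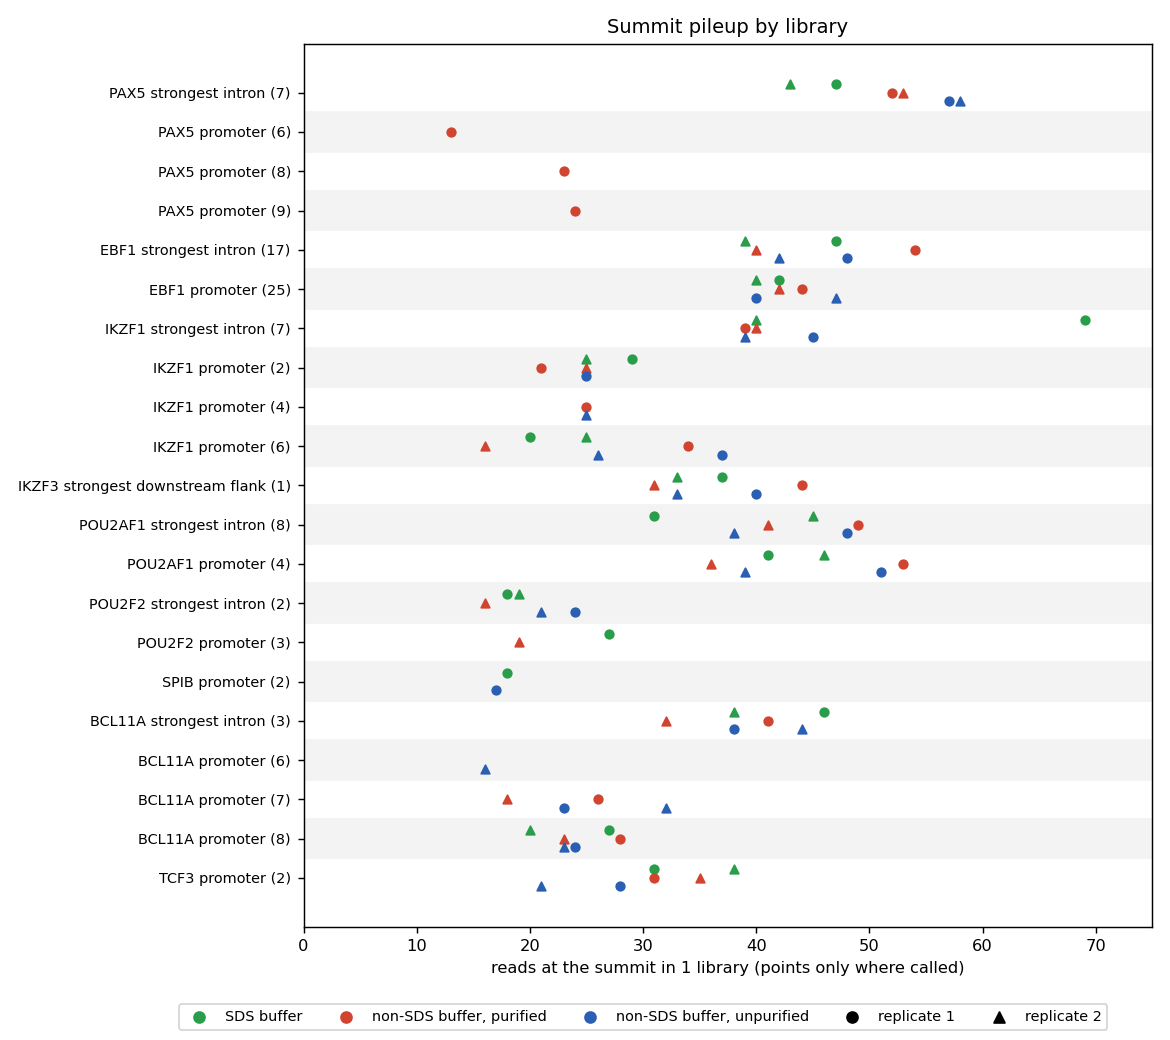
Reads at the summit in each library (x axis) for every promoter region of the 9 genes and for the strongest region outside promoters of each gene that had one, with region numbers in parentheses. Colour gives the protocol and shape the replicate, and a point is drawn only where the library called the region; at PAX5 the intronic region 7 had 43 to 58 reads while the promoter regions had a single point each.

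Outside promoters, the strongest region was called in all 6 libraries at 6 genes. PAX5 region 7 (chr9:37027419-37028050), in an intron 6.48 kb from the 5′ end and 2.04 kb upstream of the nearest internal start, had 47 and 43 reads in the SDS, 52 and 53 in the purified and 57 and 58 in the unpurified libraries. Its mean of 51.7 ± 5.79 reads was the highest of the 81 regions, and it stood in the top 8.21% to 16.7% of its libraries. The 3 groups of raw pileups did not overlap, and the share of all regions that separate in this way was not counted. After centring of each library the differences from the SDS group were 0.25 and 0.28 on the log2 scale (SE 0.17 for each). Their adjusted p was 0.684 and 0.670 (limma). Within 150 bases of its summit 71.1% of the sequence was G or C, and the observed to expected CpG ratio was 0.842, equal to the 0.842 median of regions at coding promoters and above the 0.195 of all other regions. PAX5 region 4, 40.1 kb into the gene, was the other region of PAX5 called in all libraries, with 34 to 48 reads.

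EBF1 region 17 (chr5:158380633-158381407), an intronic region 146 kb from the 5′ end, had 47 and 39, 54 and 40, and 48 and 42 reads. It exceeded the promoter of the same gene in 3 of the 6 libraries. The 11 EBF1 regions called in all libraries were spread from the promoter to just past the 3′ end, with a median gap of 27109.5 bp between neighbouring summits. The lowest of them on average, region 5, had 19.8 ± 5.15 reads.

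IKZF1 region 7 (chr7:50418140-50418739), an intronic region 74.8 kb from the 5′ end, had 69 and 40, 39 and 40, and 45 and 39 reads. SDS replicate 1 stood alone at 69 reads, and the other 5 libraries lay between 39 and 45. Region 8, with its summit 1769 bp further on, had 38 to 49 reads and no such library. Region 10, 5.29 kb past the 3′ end, had 30 to 48 reads in all 6.

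POU2AF1 region 8 (chr11:111287595-111288915) had 31 and 45, 49 and 41, and 48 and 38 reads, and also lies in a lncRNA annotated as ENSG00000255428. The 6 regions of this gene called in all libraries, the promoter included, had a median gap of 5018 bp, the shortest of the 4 genes with 3 or more. BCL11A region 3 (chr2:60742711-60743538), 38.5 kb inside the gene, had 46 and 38, 41 and 32, and 38 and 44 reads and stood in the top 9.85% to 18.5%. IKZF3 region 1 (chr17:37910197-37911225), 3.15 kb past the 3′ end of a gene with no promoter peak, had 37 and 33, 44 and 31, and 40 and 33 reads. All 3 groups overlapped at these 3 regions.

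POU2F2 region 2 (chr19:42633380-42633997) was weaker, with 18 and 19 reads in the SDS libraries, 16 in purified replicate 2, 24 and 21 in the unpurified libraries and no peak in purified replicate 1. The region of POU2F2 called in all 6 libraries was region 1, with 40 to 51 reads, which lay at the promoter of the neighbouring ZNF574. TCF3 and SPIB had no region away from coding promoters. TCF3 region 1 lay at the promoter of UQCR11, and SPIB regions 1 and 3 lay at promoters of the readthrough gene ENSG00000142539 and of MYBPC2. Counting such neighbours, 19 of the 81 regions lay at a coding promoter and 7 of them (36.8%) were called in all 6 libraries, while the other 62 were so called in 24 cases (38.7%). Over the whole lists 64.2% of regions at coding promoters and 27.0% of the rest were called in all 6 libraries.

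Motifs were counted on both strands of the 150 bases to either side of each summit, matching the letters exactly. The octamer ATGCAAAT was present in 6 of the 81 regions (7.41%) and in 3.50% of all regions. Each of these 6 was called in all 6 libraries, so that 19.4% of the 31 such regions held it, beside 2.87% of all regions called in every library. Of these, 4 lay at EBF1, and the others at IKZF1 and BCL11A. The 5 at EBF1 and IKZF1 are printed below in the direction of the motif, with 10 bases on each side and the octamer in capitals, because most of the flanking bases differ from one to the next. EBF1 region 13 and IKZF1 region 7 share the bases cca before the octamer, which make a CCAAT with it. Regions 1, 13 and 25 of EBF1 and region 7 of IKZF1 hold the octamer on the minus strand, and region 17 of EBF1 on the plus strand.
EBF1 region 1, chr5:158122732-158122759: ctaatctgggATGCAAATtgaacacgcg
EBF1 region 13, chr5:158325266-158325293: acagttgccaATGCAAATattggtaaaa
EBF1 region 17, chr5:158381086-158381113: tattgtgctgATGCAAATagttaaactt
EBF1 region 25, chr5:158527396-158527423: agatgacgttATGCAAATgaaggggcgg
IKZF1 region 7, chr7:50418419-50418446: tgagtaaccaATGCAAATgagagggaat

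The octamers lay 10 to 70 bp from the summit, closest in EBF1 region 25, which is the promoter, and at 16 bp in IKZF1 region 7. Region 1 of EBF1 overlapped the last exon, but its summit and its octamer lay past the 3′ end of the gene. The other motifs were counted in the same way over the 81 regions. CCCNNGGG of the EBF type was in 17.3% against 12.8%, GAGGAAGT of the PU.1 and SPIB type in 7.41% against 3.82%, and TGTGGTTT of the RUNX type in 8.64% against 6.56%. CAGCTG, an E-box, was in 18.5% against 16.7%, TGGGAA of the Ikaros type in 21.0% against 23%, TGACTCA of the AP-1 type in 9.88% against 13.4%, and GGGACTTTC of the NF-kB type in 1.23% against 1.44%. Among the regions called in every library several of these shares changed order. The EBF type was in 9.68% against 16.3%, the PU.1 and SPIB type in 3.23% against 3.75%, and the RUNX type in 3.23% against 6.23%. The E-box was in 22.6% against 17.5%, the Ikaros type in 22.6% against 22.3%, the AP-1 type in 16.1% against 13.1%, and the NF-kB type in 0% against 1.71%. CCAAT, searched after the PAX5 sequence had been seen, was in 29.6% against 34.3%, and among the regions called in every library in 17 of the 31 (54.8%) against 36.4%. Matches overlapped one another in places, and a match describes the letters only.

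**Figure D4:**
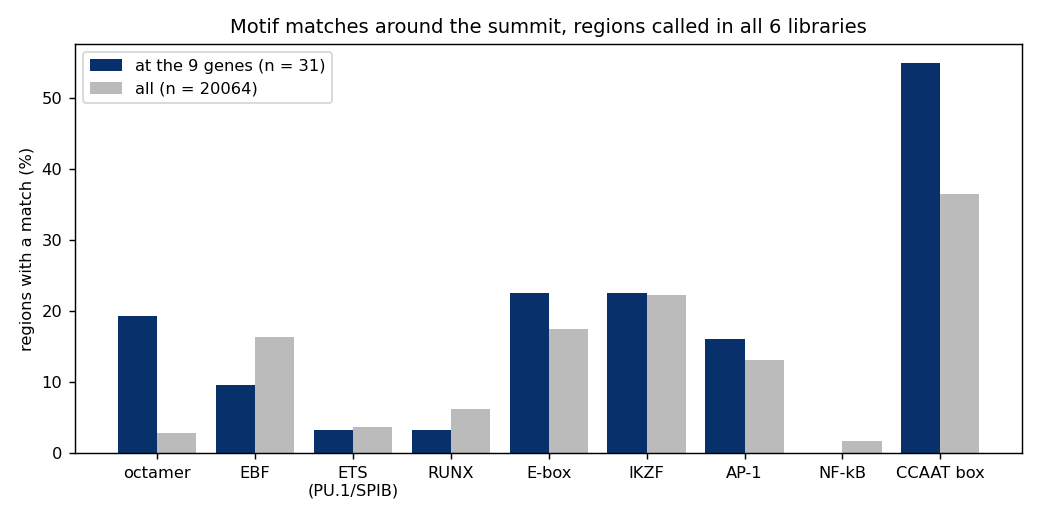
Percent of regions with at least 1 match to each motif (y axis) within 150 bp of the summit, for the 31 regions at the 9 genes (dark bars) and all regions (grey bars) called in all 6 libraries. The octamer stood at 19.4% against 2.87%, the CCAAT box at 54.8% against 36.4%, and the EBF type motif at 9.68% against 16.3%.

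Base composition followed position. At the 14 promoter regions of the genes the median GC content was 61.6% and the median CpG ratio 0.671, below the 67.1% and 0.842 of all regions at coding promoters. The 62 regions away from coding promoters had 45.5% GC and a CpG ratio of 0.283, above the 43.5% and 0.195 of all such regions. IKZF3 region 1, in a flank, had 75.1% GC and a ratio of 0.875.

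The 3 protocols were then compared over the libraries. The number of peaks at the 9 genes was 53.5 ± 2.12 in the SDS, 51.5 ± 9.19 in the purified and 51.5 ± 2.12 in the unpurified group (SD, n = 2 each). The differences were −2, −2 and 0 peaks, with exact two-sided permutation p of 1, 0.667 and 1. As a share of all peaks of the library these were 0.148% ± 0.00230, 0.151% ± 0.00227 and 0.146% ± 0.000714, and the smallest exact permutation p was 0.333 (0.5 adjusted over the 3 pairs). The smallest p that 2 libraries against 2 allow is 0.333, so no pair could pass 0.05. Purified replicate 2, which had the fewest peaks of all libraries, also had the fewest at the 9 genes, and without it the difference between the purified non-SDS and the SDS group was 4.5 peaks in place of −2.

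A region that both replicates of a protocol called and the other 4 libraries did not was found at 1 of the 81 regions. This was POU2AF1 region 11 (chr11:111307459-111307747), an intronic region with 24 and 11 reads in the purified non-SDS libraries. Over all regions, 286 (0.507%) were called in this way in that protocol, 654 (1.16%) in the SDS and 445 (0.788%) in the unpurified non-SDS protocol. This rule leaves out regions that 1 protocol lacked and both others called. BCL11A region 7 and EBF1 region 11 (19 to 24 reads) were called in all 4 non-SDS libraries and in neither SDS library. The share of all regions called in that way was not counted.

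Summit pileups of the regions called in all 6 libraries were compared with limma after each library was centred on its median. Of 20064 regions tested, 0.0449% passed an adjusted p of 0.05 between the purified non-SDS and the SDS group (4 higher and 5 lower), 0.0199% between the unpurified non-SDS and the SDS group (0 higher and 4 lower), and 0% between the unpurified and the purified non-SDS group. At an unadjusted p under 0.05 these were 1722, 1693 and 865 regions. Of the 31 regions at the 9 genes 0 passed in any of the 3 comparisons, and 1, 4 and 2 had an unadjusted p under 0.05 (limma). Their median log2 differences were 0.09, −0.01 and −0.09, beside 0.03, 0.04 and 0.01 over all regions. In the same order 21, 14 and 5 of the 31 differences were above 0. The share of all regions above 0 was not counted. The 31 regions are not independent, since they share the same libraries and 11 of them lie at EBF1. Leaving out each library in turn gave 1 to 15, 0 to 10 and 0 to 1 regions over the whole lists, and 0 of the 31 each time.

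**Figure D5:**
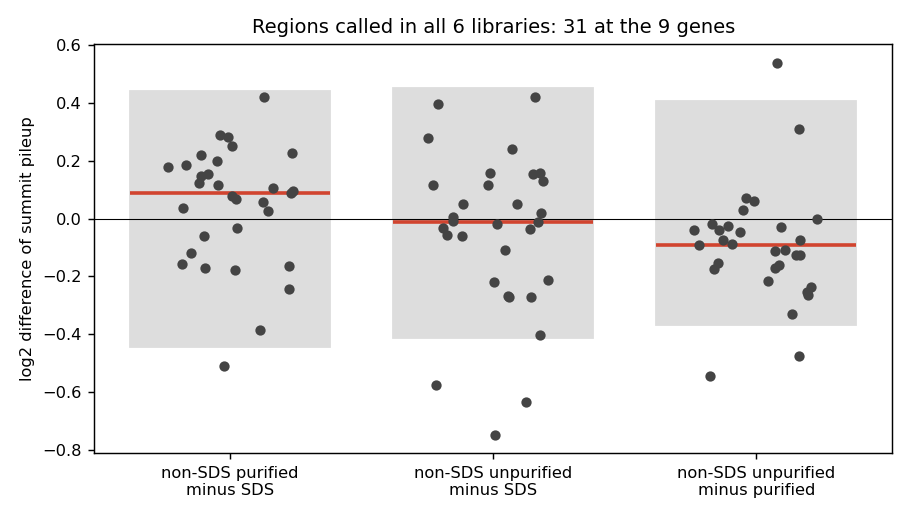
Log2 difference of centred summit pileup (y axis) in each of the 3 comparisons of protocols, 1 point for each of the 31 regions at the 9 genes. Red lines are their medians (0.09, −0.01 and −0.09) and grey boxes span the 5th to the 95th percentile of all regions tested.

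EBF1 region 5 had the largest difference in both comparisons with the SDS group. It had 25 and 26 reads in the SDS, 22 and 14 in the purified and 16 and 16 in the unpurified libraries. The non-SDS libraries were all below both SDS libraries. The region was picked for its large difference, and how many of all regions separate in this way was not counted. The log2 difference was −0.51 (SE 0.28, adjusted p = 0.610 by limma) for the purified and −0.75 (SE 0.28, adjusted p = 0.429 by limma) for the unpurified group. With 1 library left out at a time these ran from −0.71 (without purified replicate 1) to −0.31 (without purified replicate 2, which had 14 reads) and from −0.88 to −0.62. TCF3 region 2, the promoter described above, had the largest difference between the unpurified and the purified group, −0.55 (SE 0.24, adjusted p = 1 by limma), and stood at −0.58 (SE 0.24, adjusted p = 0.493 by limma) against the SDS group. The former ran from −0.76 without purified replicate 1 to −0.33 without purified replicate 2, and the latter from −0.82 without SDS replicate 1 to −0.33 without SDS replicate 2. Without purified replicate 2 or unpurified replicate 2 (−0.36) the TCF3 difference was smaller than that of EBF1 region 13, which was 0.54 with all libraries and 0.51 to 0.56 with 1 left out. IKZF1 region 7 was lower than in the SDS group by −0.38 and −0.40 (SE 0.19 for each, adjusted p = 0.570 and 0.557 by limma), and without SDS replicate 1 these differences were −0.09 and −0.11, while without SDS replicate 2 they were −0.68 and −0.70. The median SE over the 31 regions was 0.23, and their smallest adjusted p in any comparison was 0.429 (limma). The smallest change in a single region that 2 libraries per protocol could detect was not measured in these data.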

How the data were processed

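ATAC-seq was measured in 6 bulk libraries of GM12878 cells, 2 for each of 3 reverse crosslinking protocols, grouped by the sample labels. Whether the SDS and the purified non-SDS libraries were purified was taken from the study's text and supplement. The authors mapped paired reads to hg19 with Bowtie2 (version 2.1.0), kept properly paired reads above a mapping quality of 30, discarded mitochondrial reads and, with Picard (version 1.79), duplicates, and then ran MACS2 in its narrow mode with a q threshold of 0.01. The submitters' processing notes also name DESeq. The MACS2 version is not given in the sources used here. Their methods speak of reads merged by condition before calling, but there was 1 list per library here.

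Every deposited peak carries the values that the authors' caller wrote: a score derived from the q value, the enrichment of its summit over the local background as a ratio (fold), and the summit's p and q values as −log10. The lists hold no counts per region. The summit pileup and the local background were therefore solved from the deposited fold enrichment and −log10 p, to within a tolerance of 0.001, for 100% of peaks.

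The members and gene lists were chosen with earlier results of these data known. Overlapping peaks of the 6 lists were merged into regions. A region was classed as promoter within 1 kb of a coding start of its gene (GENCODE version 44), then exon, intron or flank. Ranks used the −log10 q within a library. Peak numbers were compared by exact permutation, and log2 summit pileups of regions called in every library, centred on each library's median, by limma (version 3.58.1, R 4.3.3) with a mean-variance trend in 1 fit of all 6 libraries, adjusted by Benjamini-Hochberg over all regions. Named singly were every promoter region, the strongest region outside coding promoters per gene, the protocol-specific region and the regions of largest difference. Other regions were named after their values were seen. Sequences came from the GRCh37 reference (hg19). The functions were tested on simulated data and against bedtools 2.31.1. The alternatives were a −log10 q of at least 5, 30136 peaks per library, other windows, merging and overlap rules, other scalings and filters, a replicate block, and each library left out in turn. Python 3.11.15, NumPy 2.4.6, SciPy 1.17.1 and pandas 2.3.3 were used.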

Additional observations from a re-analysis of the deposited data

How the results depend on the processing

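Of the regions at the 9 genes tested by limma, 0 passed under any alternative fitted to all 6 libraries, with 0 to 4 at an unadjusted p under 0.05. There were 31 such regions, but 41 with regions called in at least 4 libraries and 30 with a mean pileup of at least 20. The number of all regions that passed did change. Between the purified non-SDS and the SDS group it was 9, and 4 with scaling by the lowest background, 5 with quantile normalization and 3 with log2 of −log10 q in place of pileup. Between the unpurified non-SDS and the SDS group it was 4, and 10 with regions called in at least 4 libraries and 0 with log2 of −log10 q. Leaving out 1 library at a time gave 1 to 15 (1 without SDS replicate 2, 3 without SDS replicate 1, 15 without purified replicate 1), 0 to 10 (0 without SDS replicate 1 or either unpurified library, 1 without SDS replicate 2, 7 and 10 without purified replicate 2 and 1) and 0 to 1 in the 3 comparisons. In a group left with 1 library, that library is assumed to vary like the others. Replicate numbers did not pair the libraries (r of deviations −0.00417, −0.00264 and 0.0146), and with the replicate block 10, 6 and 0 regions passed.

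Of the 81 regions, 19 (23.5%, beside 25.3% of all regions) were called in all 6 libraries where at least 50% of a region had to lie in peaks. With a library left out, 31 to 35 of 76 to 80 regions were called in every remaining library, which asks for fewer calls. The count was 31 of 80 without SDS replicate 1 (38.75%, beside 38.6% of all regions). It was 35 of 80 without purified replicate 2 (43.75%, beside 39.4% of all regions). The class of exon regions fell to 1 by summit position. The median promoter rank of the top 49.6% became 66.7% by fold enrichment, 33.7% by summit pileup and 37.2% with a promoter window of 2 kb, and 45 to 51.9% with a library left out. The 2 kb window takes in PAX5 region 7 as a promoter region of PAX5. The difference in peaks at the 9 genes between the purified non-SDS and the SDS group was 1.5 with an equal number of peaks, and −8.5 to 4.5 with a library left out (4.5 without purified replicate 2). The others ran from −3.5 to −0.5 and from −6.5 to 6.5. The difference in share became −0.00243% at a −log10 q of at least 5, and that between the unpurified non-SDS and the SDS group became 0.0012% with flanks of 50 kb. No alternative could bring these peak tests below 0.05. The causes of these changes were not tested. A further 106 alternatives for the results that answer a comparison, and 34 for single regions, counted as unchanged. They kept the direction and the side of the threshold, or stayed within a set margin of the main value. For the number of regions passing limma this margin was 1.5-fold. Some of the 106 could not come out otherwise. The peak tests could not change side, and the main difference of 0 peaks between the unpurified and the purified non-SDS group has no direction. Depth limits single regions to the counting error of about 20 reads.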
